A study of Mus musculus with 18 samples.

Results

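Hypothalamic patterning transcription factors were followed across the hypothalamus, pituitary and ovary of mice that had been transported and of mice that had not. The 9 genes were the closely related homeodomain factors Six3 and Six6, the homeodomain factors Rax and Otp, the PAS-domain factor Sim1, the NK homeodomain factors Nkx2-1 and Nkx2-2, and the LIM homeodomain factors Lhx1 and Isl1. They were chosen by name, and each was read from the array feature (transcript cluster) that the annotation assigns to that gene alone. All 9 had 1 such cluster, out of 22180 genes measured.

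The animals were superovulated female mice of the strain the labels spell BABL/c, born as 10 littermate pairs. One littermate of each pair went to each group at 6 weeks of age, and superovulation followed at 9 weeks. Stressed mice travelled 1000 km by vehicle over about 10 h at 50 km/h, leaving from and returning to the laboratory, and control mice did not travel. In each group a high sample (the mouse with the most oocytes), a low sample (the mouse with the fewest) and a pool of the other 8 mice were hybridised to Affymetrix Mouse Gene 2.0 ST arrays, once per tissue. This gave 3 stressed and 3 control arrays in each of 3 tissues, 18 in all. Values are log2 signals as the authors deposited them, and a difference of 1 is a doubling of signal. P-values measure only the spread between these arrays, 4 of which per tissue are single mice and 2 of which are pools. Below, 3 values of a group are always given in the order high, low and pool.

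These factors bind DNA and divide the embryonic ventral forebrain into territories. Sonic hedgehog from the midline and reduced Wnt signalling set up the early field marked by Six3, Six6, Rax and Nkx2-1. Later factors such as Otp, Sim1, Lhx1 and Isl1 specify neuron types, among them the neurons that release peptides toward the pituitary. Several of them keep being expressed in adult neurons, and the anterior pituitary, which forms from oral ectoderm beside this field, uses some of the same genes.

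Markers of each tissue were in place in the arrays. Of the hypothalamic neuron markers measured, 7 of 7 were higher on every hypothalamic array than on any array of the other tissues, as were 8 of 9 pituitary endocrine markers in the pituitary (all but Trhr) and 10 of 11 ovarian markers in the ovary (all but Amh). The pools stood apart. The summed signal of the ovarian markers, on the log2 scale, was 11.12 in the stressed hypothalamic pool. It was 8.59 in the control hypothalamic pool, and single mice had 8.22 to 8.70. The stressed pituitary pool had 12.03, while the control pituitary pool had 8.88 and pituitaries of single mice 8.43 to 8.58. The summed pituitary markers were 11.60 to 12.11 in the ovarian pools, against 7.42 to 7.80 in ovaries of single mice. Differences between tissues are therefore given with and without the pools. In whole tissue, fewer cells of a type and less RNA per cell cannot be told apart.

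Compared with pituitary, the hypothalamus was higher for Otp, Sim1, Nkx2-1, Nkx2-2 and Lhx1, by 1.26 to 1.82 on the log2 scale, and lower for Six3 and Six6. Rax and Isl1 were not called different between these tissues. In limma with Benjamini-Hochberg adjustment over all genes, 5 of 9 members passed as higher in hypothalamus, where 19.6% of all genes did, and 2 of 9 passed as lower, where 19.9% of all genes did. Against ovary, 9 of 9 were higher in hypothalamus (21.5% of all genes). None (0 of 9) was lower than in ovary, as 25.7% of all genes were. Between pituitary and ovary, Six3, Six6, Rax and Isl1, 4 of 9, were higher in pituitary (19.2% of all genes), and 0 of 9 were lower (21.8% of all genes). Read array by array, all 6 hypothalamic arrays lay above all 6 pituitary arrays for 5 of 9 members (11.5% of all genes) and below them for 2 of 9 (9.00%). They lay above all ovarian arrays for 8 of 9, all but Rax (15.4% of all genes), and below them for 0 of 9 (16.5%). Pituitary lay wholly above ovary for Six3, Six6 and Isl1, 3 of 9 (10.2% of all genes), and wholly below it for 0 of 9 (11.6%). Each array was centred on its own median as an alternative scaling, which moved the median difference of all genes between hypothalamus and pituitary by 0.14 and that between pituitary and ovary by -0.11. The calls were 4344 higher and 4424 lower between hypothalamus and pituitary as deposited, and 5602 higher and 3178 lower after centring. Between pituitary and ovary they were 4257 higher and 4829 lower as deposited, and 3411 higher and 5908 lower after centring. Of the members' calls in these comparisons, only that of Rax between pituitary and ovary was lost after centring (difference 0.30, limma adjusted p = 0.120) or after quantile normalisation (0.31, adjusted p = 0.128).

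**Figure D1:**
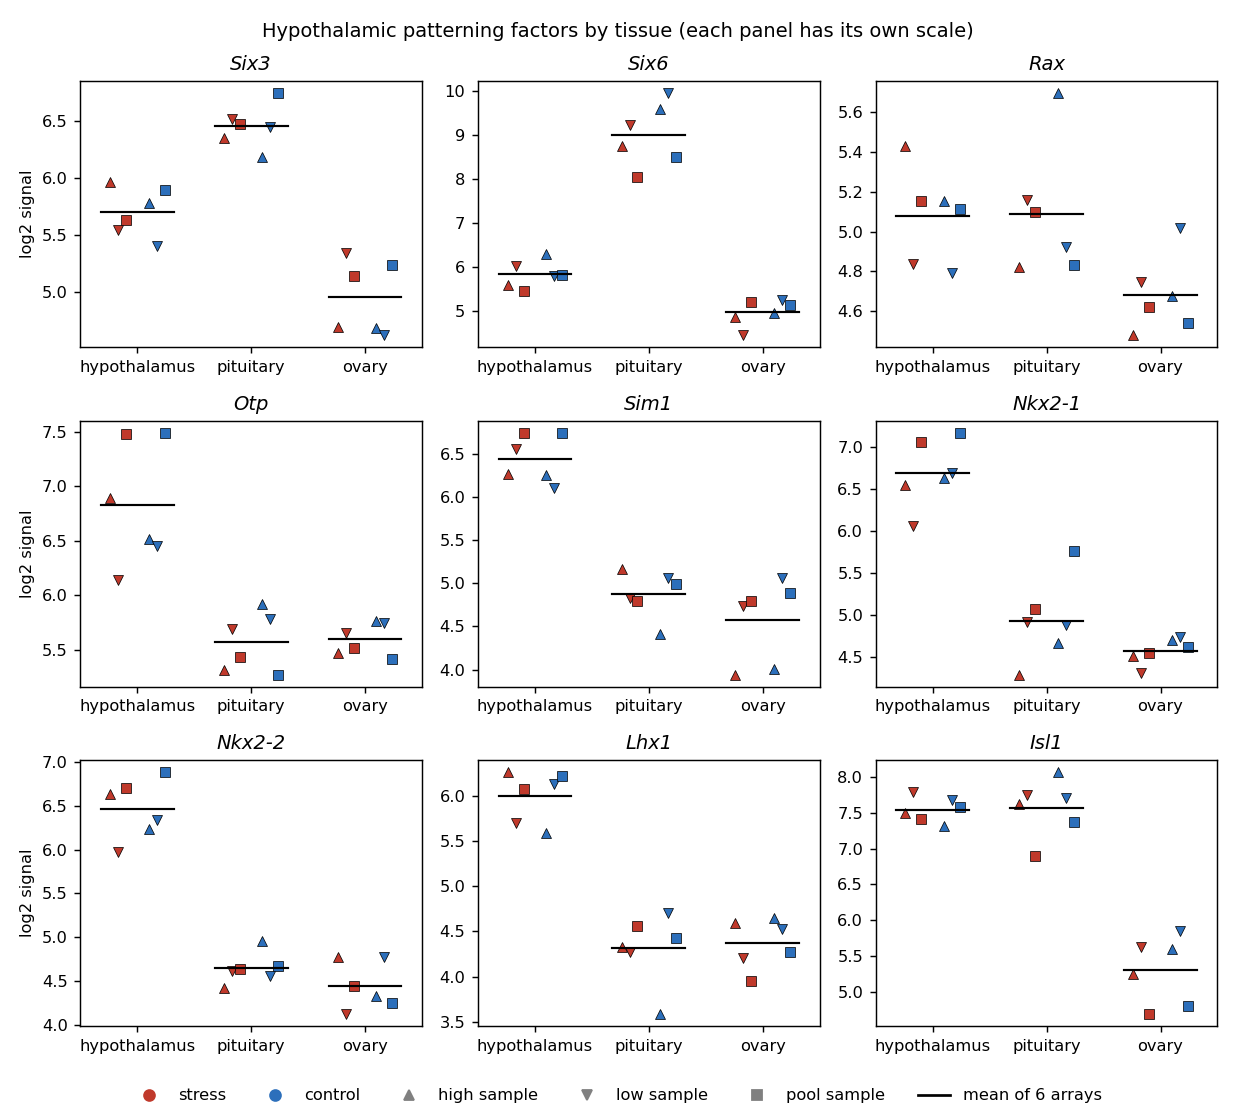
Log2 signal (vertical axis, a separate scale in each panel) of the 9 factors in hypothalamus, pituitary and ovary, with stressed and control arrays in different colours, the high, low and pool samples as different markers and the mean of 6 arrays as a line. Six6 sits between 8.04 and 9.94 in pituitary and between 5.47 and 6.30 in hypothalamus, while Otp, Sim1, Nkx2-1, Nkx2-2 and Lhx1 sit highest in hypothalamus.

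Six6, which in mice is needed for the optic and gonadotropin-releasing hormone systems and is also known from the pituitary, had the widest tissue difference of the 9. Its log2 signal in hypothalamus was 5.59, 6.02 and 5.47 in stressed mice and 6.30, 5.80 and 5.82 in control mice. In pituitary it was 8.74, 9.23 and 8.04 in stressed mice and 9.58, 9.94 and 8.49 in control mice. Every pituitary array was above every hypothalamic array, and every hypothalamic array was above the ovarian arrays, which ran from 4.46 to 5.24. Hypothalamus averaged 5.83 ± 0.30, pituitary 9.00 ± 0.71 and ovary 4.98 ± 0.29 (SD, n = 6 arrays each). The difference hypothalamus minus pituitary was -3.17 (SE 0.22), a 9.00-fold lower signal, with a limma adjusted p of 9.05e-10. Hypothalamus minus ovary was 0.85 (SE 0.22, limma adjusted p = 0.00282) and pituitary minus ovary 4.02 (SE 0.22, adjusted p = 3.05e-11). Without the pools these differences were -3.44, 1.05 and 4.49.

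Pituitary endocrine markers were present at low summed signal in the hypothalamic arrays, and their values are given beside those of Six6. Their sum was 9.78, 8.86 and 9.16 in stressed hypothalamus and 8.51, 10.27 and 9.52 in control hypothalamus, against 14.90 to 15.26 in pituitary. The part of these pituitary markers in the hypothalamic Six6 signal was not tested.

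Six3, the closest relative of Six6 on the list and a repressor of Wnt signalling in the early forebrain, had the same order of tissues. Its log2 signal in hypothalamus was 5.96, 5.54 and 5.63 in stressed mice and 5.79, 5.40 and 5.89 in control mice. In pituitary it was 6.35, 6.51 and 6.47 in stressed mice and 6.18, 6.44 and 6.74 in control mice. The lowest pituitary array (6.18) was above the highest hypothalamic array (5.96), and all hypothalamic arrays were above the ovarian ones (4.63 to 5.35). Relative to pituitary, hypothalamus differed by -0.75 (SE 0.14, limma adjusted p = 0.000210), hypothalamus relative to ovary by 0.75 (adjusted p = 0.000141) and pituitary relative to ovary by 1.50 (adjusted p = 3.94e-08). Without the pools they were -0.70, 0.84 and 1.54.

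The promoters of Six3 and Six6 are printed because both hold CCAAT letters and they share a run of letters around them. Both are from RefSeq (GRCm38.p6), 250 bases before to 50 bases after the transcription start, on the gene's strand, at chr17:85620584-85620883 (plus strand) for Six3 and chr12:72939632-72939931 (plus strand) for Six6. Capitals mark CCAAT and its reverse complement ATTGG.
Six3: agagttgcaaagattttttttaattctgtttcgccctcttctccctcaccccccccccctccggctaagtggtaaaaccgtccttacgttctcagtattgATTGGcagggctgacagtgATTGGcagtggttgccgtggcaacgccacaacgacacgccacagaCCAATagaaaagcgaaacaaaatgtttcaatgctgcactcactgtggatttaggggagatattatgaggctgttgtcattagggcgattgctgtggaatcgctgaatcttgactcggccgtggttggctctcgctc
Six6: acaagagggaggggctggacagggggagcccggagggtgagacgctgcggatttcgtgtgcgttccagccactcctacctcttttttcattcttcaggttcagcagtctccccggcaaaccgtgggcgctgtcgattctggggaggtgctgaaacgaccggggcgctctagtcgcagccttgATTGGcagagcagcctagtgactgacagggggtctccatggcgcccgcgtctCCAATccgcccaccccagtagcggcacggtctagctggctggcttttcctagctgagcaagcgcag
The longest run the pair shares that holds an ATTGG is TTGATTGGCAG, 11 bases, beginning at position -153 in Six3 and -71 in Six6, where the start base counts as 1 and the base before it as -1. Of 32851 mouse promoters of this length, 12 hold that run on either strand (0.0365%). The run was picked from this pair itself, and other pairs of promoters were not compared. Its share therefore does not tell how unusual such sharing is. Six3 holds CCAAT letters at 3 places and Six6 at 2. These are matches of letters in a window and no measurement of binding.

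Rax, which marks the early eye and hypothalamic field and in the adult hypothalamus the tanycytes lining the third ventricle, had nearly the same signal in hypothalamus and pituitary. It read 5.43, 4.84 and 5.15 in stressed hypothalamus and 5.15, 4.79 and 5.11 in control hypothalamus. In pituitary it read 4.82, 5.16 and 5.10 in stressed mice and 5.69, 4.92 and 4.83 in control mice, and the arrays of the 2 tissues overlapped. Hypothalamus minus pituitary was -0.01, with a 95% interval of -0.32 to 0.31 (limma adjusted p = 0.974). Without the pools it was -0.10 (interval -0.54 to 0.35, limma adjusted p = 0.769). The Rax means of both tissues (5.08 and 5.09) lay near the array medians (4.75 to 5.03). Like signals at this level do not show that Rax is equally expressed in the 2 tissues. Hypothalamus minus ovary was 0.40 (SE 0.15, adjusted p = 0.0348) and pituitary minus ovary 0.41 (SE 0.15, adjusted p = 0.0359), but the ovarian arrays (4.48 to 5.02) overlapped with both. Neither call was stable. The first was lost without the pools (0.32, limma adjusted p = 0.251), without the animal block (0.40, adjusted p = 0.0599), and whenever any of the 8 high or pool arrays of hypothalamus or ovary was left out (0.31 to 0.40, adjusted p up to 0.113). The second was lost without the pools (0.42, adjusted p = 0.136), without the animal block, and without the control high, the stressed low or the stressed pool pituitary or any high or pool ovary.

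Isl1, which in mice specifies arcuate neurons that make Pomc and is present in developing pituitary, was shared between hypothalamus and pituitary. Its log2 signal in hypothalamus was 7.50, 7.79 and 7.42 in stressed mice and 7.32, 7.68 and 7.58 in control mice. In pituitary it was 7.63, 7.75 and 6.90 in stressed mice and 8.07, 7.71 and 7.37 in control mice, so that the 2 tissues overlapped. The mean difference, hypothalamus minus pituitary, was -0.03, with an interval of -0.39 to 0.34 (limma adjusted p = 0.931). Without the pools it was -0.22, with an interval of -0.58 to 0.14 (limma adjusted p = 0.352). Both tissues lay wholly above ovary, where the arrays ran from 4.68 to 5.85. The difference was 2.25 for hypothalamus (SE 0.17, limma adjusted p = 1.66e-09) and 2.27 for pituitary (SE 0.17, adjusted p = 2.87e-09), or 1.99 and 2.21 without the pools.

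The remaining 5 factors were higher in hypothalamus than in both other tissues. Nkx2-1 is required in mice for the ventral hypothalamus and for Shh expression there. Its log2 signal in hypothalamus was 6.54, 6.06 and 7.05 in stressed mice and 6.63, 6.69 and 7.17 in control mice. In pituitary it was 4.30, 4.92 and 5.07 in stressed mice and 4.68, 4.88 and 5.76 in control mice, the control pool coming closest to the hypothalamic range. Ovary ran from 4.32 to 4.74. Nkx2-1 in hypothalamus minus pituitary was 1.76 (SE 0.17, limma adjusted p = 1.32e-07), a 3.38-fold higher signal, and hypothalamus minus ovary was 2.11 (SE 0.17, adjusted p = 4.77e-09). Pituitary minus ovary was 0.36 and did not pass (adjusted p = 0.116). It passed with the ovulation class as a block (0.36, adjusted p = 0.0278) and without the stressed high pituitary (0.48, adjusted p = 0.0390). Without the pools, pituitary minus ovary fell to 0.12 (limma adjusted p = 0.64).

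Nkx2-2, which marks the boundary between the basal and alar plates and later oligodendrocyte precursors, followed the same pattern. It read 6.64, 5.97 and 6.71 in stressed hypothalamus and 6.24, 6.33 and 6.89 in control hypothalamus. Pituitary ran from 4.42 to 4.95 and ovary from 4.12 to 4.77, so that more than 1 log2 unit separated the lowest hypothalamic array from the highest array of either tissue. Hypothalamus minus pituitary was 1.82 (SE 0.15, limma adjusted p = 1.67e-08), the largest positive difference of the 9 against pituitary. Hypothalamus minus ovary was 2.02 (SE 0.15, adjusted p = 1.62e-09).

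Otp, a homeodomain factor that mouse neurosecretory neurons need to form, varied most among the hypothalamic arrays. It read 6.89, 6.14 and 7.48 in stressed hypothalamus and 6.52, 6.46 and 7.49 in control hypothalamus (mean 6.83 ± 0.56, SD, n = 6). Pituitary ran from 5.27 to 5.92 and ovary from 5.42 to 5.77, below every hypothalamic array. Hypothalamus minus pituitary was 1.26 (SE 0.21, limma adjusted p = 5.64e-05) with the pools, and 0.82 (SE 0.18, adjusted p = 0.00227) without them. Hypothalamus minus ovary was 1.23 (SE 0.21, adjusted p = 4.53e-05) and 0.84 without the pools (adjusted p = 0.00141).

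Sim1, a basic helix-loop-helix PAS factor required for paraventricular neurons in mice, read 6.26, 6.56 and 6.74 in stressed hypothalamus and 6.25, 6.10 and 6.75 in control hypothalamus. Pituitary ran from 4.42 to 5.17 and ovary from 3.94 to 5.07. The lowest hypothalamic array stood above all of these, and pituitary and ovary overlapped. Hypothalamus minus pituitary was 1.56 (SE 0.18, limma adjusted p = 7.44e-07) and hypothalamus minus ovary 1.87 (SE 0.18, adjusted p = 3.53e-08).

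Lhx1, a LIM homeodomain factor of the suprachiasmatic nucleus, the circadian pacemaker, read 6.26, 5.70 and 6.08 in stressed hypothalamus and 5.59, 6.13 and 6.22 in control hypothalamus. Pituitary ran from 3.59 to 4.70 and ovary from 3.95 to 4.65, both below every hypothalamic array. Hypothalamus minus pituitary was 1.68 (SE 0.17, limma adjusted p = 1.15e-07) and hypothalamus minus ovary 1.63 (SE 0.17, adjusted p = 9.08e-08). Without the pools, hypothalamus minus pituitary was 1.70 for Lhx1, 1.42 for Sim1, 1.79 for Nkx2-1 and 1.66 for Nkx2-2, all still past the threshold. Hypothalamus minus ovary without the pools was 1.43, 1.85, 1.91 and 1.80 in the same order of genes, again past the threshold.

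Otp and Lhx1 are the members of this hypothalamus-high group whose promoters hold CCAAT letters, and they are printed to show where. They lie at chr13:94875386-94875685 (plus strand) for Otp and chr11:84525485-84525784 (minus strand) for Lhx1, again from RefSeq on GRCm38.p6, 5′ to 3′ along the gene, with CCAAT and ATTGG in capitals.
Otp: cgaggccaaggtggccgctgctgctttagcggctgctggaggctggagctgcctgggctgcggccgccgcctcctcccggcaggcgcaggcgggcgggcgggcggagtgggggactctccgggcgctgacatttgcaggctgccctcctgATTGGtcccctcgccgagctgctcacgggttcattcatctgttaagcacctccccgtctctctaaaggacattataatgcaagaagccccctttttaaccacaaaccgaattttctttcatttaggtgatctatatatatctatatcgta
Lhx1: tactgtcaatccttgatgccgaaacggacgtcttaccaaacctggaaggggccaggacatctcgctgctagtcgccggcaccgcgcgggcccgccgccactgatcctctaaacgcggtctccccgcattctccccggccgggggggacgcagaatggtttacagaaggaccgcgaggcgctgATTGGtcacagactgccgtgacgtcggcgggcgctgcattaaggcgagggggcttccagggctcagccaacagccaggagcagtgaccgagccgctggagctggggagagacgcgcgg
Each holds 1 ATTGG, within the shared run CTGATTGGTC of 10 bases that begins at -103 in Otp and -71 in Lhx1. That run stands, on either strand, in 123 of the 32851 promoters (0.374%). It too was picked from the pair itself, so its share does not tell how unusual such sharing is. The table held a promoter for 8 of the 9 members. CCAAT on either strand was found in 5 of the 8 (Six3, Six6, Otp, Lhx1 and Isl1) and in 37.4% of all promoters, and its extension CCAATC, which overlaps it, in 4 of the 8 and in 16.1%. The TATA-box letters TATAAA, on either strand and anywhere in the window, were found in 1 of the 8, Sim1, and in 13.6% of all promoters. In Sim1 they stand only as TTTATA, on the other strand, at positions -14 and 43. The homeodomain core TAATTA was found in 0 of the 8 and in 5.29%. The members' promoters held 12 (Nkx2-1) to 37 (Isl1) CG dinucleotides, with a median of 18.5, against a median of 7 over all promoters, and 8 of 8 were above that median.

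**Figure D2:**
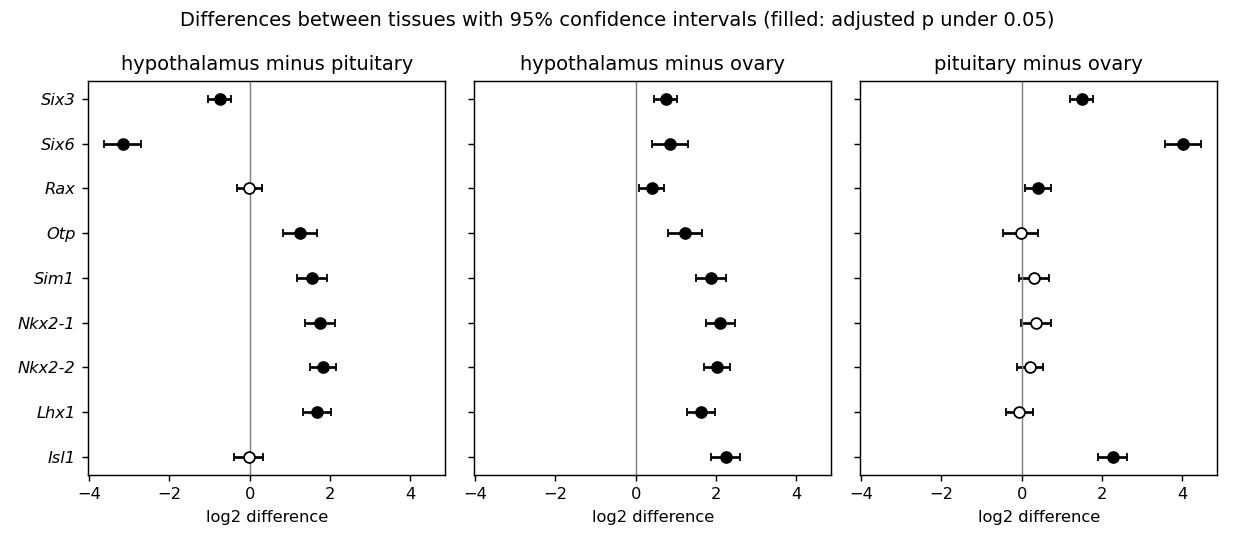
Difference in log2 signal between tissues (horizontal axis) for each factor, with 95% confidence intervals from limma and filled points for an adjusted p under 0.05. The intervals of Otp, Sim1, Nkx2-1, Nkx2-2 and Lhx1 in the hypothalamus minus pituitary panel lie right of 0 (1.26 to 1.82), Six6 and Six3 lie left of it (-3.17 and -0.75), and Rax and Isl1 lie on it.

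The genes whose signal most resembled each member's were sought over the 18 arrays by Pearson's r, as a description that mostly carries the tissue differences. Nearest to Six6 were Lhfpl1 (r = 0.988), the thyroid hormone receptor gene Thrb (0.980) and the thyrotropin subunit gene Tshb (0.979). Nearest to Otp were Npas1 (0.956), Cfap52 (0.948) and the growth hormone-releasing hormone gene Ghrh (0.948). Nkx2-2 stood nearest to the neurotensin receptor gene Ntsr1 (0.982) and the synaptotagmin gene Syt2 (0.972), Nkx2-1 to Nckipsd (0.977) and the muscarinic receptor gene Chrm3 (0.976), Lhx1 to the cadherin gene Cdh4 (0.969), Sim1 to Magi1 (0.968), Isl1 to the adhesion gene Cadm1 (0.977) and Six3 to Ccdc60 (0.960). The highest value for Rax was 0.827, with Defb48. Among the members, the 5 hypothalamus-high factors had r of 0.82 to 0.95 with each other, and Six3 with Six6 had 0.840.

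The genes around these factors were read from lists. Of 43 other measured patterning factors of the hypothalamus and ventral forebrain (48 listed), 29 were higher and 1 lower in hypothalamus than in pituitary. Over all genes, 19.6% were higher and 19.9% lower. The median difference was 0.66 for the list, against -0.04 over all genes. Fezf1, a zinc-finger factor of the ventromedial hypothalamus, averaged 8.24 ± 0.46 in hypothalamus and 4.79 ± 0.24 in pituitary (SD, n = 6 each; difference 3.44). Lhx5, a LIM factor of the mammillary region, differed by 2.51, Dlx5, a factor of inhibitory neurons, by 2.46 and Foxb1, a mammillary factor, by 2.21. The 1 lower factor was Nr5a1 (-0.94, limma adjusted p = 0.000216), named for being alone; besides the ventromedial hypothalamus it serves pituitary gonadotropes and ovary, where it averaged 8.85 ± 0.42.

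Signals that pattern the field were read next. Of 23 measured hedgehog, BMP, FGF, Wnt, TGF-beta and Notch pathway genes (24 listed), 9 were higher and 5 lower in hypothalamus than in pituitary. Over all genes, 19.6% were higher and 19.9% lower, so the share of lower signal genes lies near that of all genes. The list had a median difference of 0.13. Shh, the hedgehog ligand, averaged 5.30 ± 0.22 in hypothalamus and 4.29 ± 0.28 in pituitary (difference 1.01). Ptch1, its receptor and target, was higher in hypothalamus by 1.26 and the ligand gene Tgfb2 by 1.18, while Cdon, a hedgehog co-receptor, was lower (-1.31).

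Among 20 cofactors and partners, 3 were higher and 6 lower in hypothalamus than in pituitary, against 19.6% and 19.9% of all genes, with a median difference of -0.12. These shares lie near those of all genes, and after median centring the counts were 4 and 5. Eya1, a coactivator known for binding homeodomain relatives of Six3, averaged 6.98 ± 0.28 in hypothalamus and 10.26 ± 0.16 in pituitary (difference -3.29). Dach1, a corepressor that works with such homeodomain proteins, was also lower in hypothalamus (-1.63). The dimer partners of Sim1 went apart: Arnt2, its partner in neurons, was higher in hypothalamus (2.03) and Arnt was lower (-1.34).

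Neuropeptide and transmitter genes of the neurons these factors specify were mostly higher in hypothalamus. Of 17 measured (18 listed), 12 were higher and 2 lower than in pituitary, against 19.6% and 19.9% of all genes. Their median difference was 1.77. Sst, encoding somatostatin, averaged 11.75 ± 0.25 in hypothalamus and 5.97 ± 0.35 in pituitary (difference 5.78). Trh, encoding thyrotropin-releasing hormone, was higher by 5.01 and Cartpt by 2.97. Pomc, made by arcuate neurons under Isl1 and by pituitary corticotropes, was lower in hypothalamus (-6.34).

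Of 11 measured pituitary transcription factors (14 listed), 6 were lower in hypothalamus and 1 higher, against 19.9% and 19.6% of all genes. Their median difference was -0.56. Lhx3, the LIM factor of the pituitary primordium, averaged 4.22 ± 0.50 in hypothalamus and 7.40 ± 0.31 in pituitary (difference -3.18). Tbx19, the corticotrope factor (-3.62), and Pitx1, a factor of the whole pituitary primordium (-2.19), were also lower. Sox2, a progenitor factor of both tissues that is on the patterning list too, was the 1 that was higher in hypothalamus (1.10). Without the pools, the counts of genes higher and lower in hypothalamus than pituitary were 27 and 1 for the patterning factors, 8 and 4 for the signals, 2 and 5 for the partners, 12 and 2 for the peptide and transmitter genes and 1 and 5 for the pituitary factors. Of all 22180 genes, 4147 were higher and 3895 lower in that setting.

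**Figure D3:**
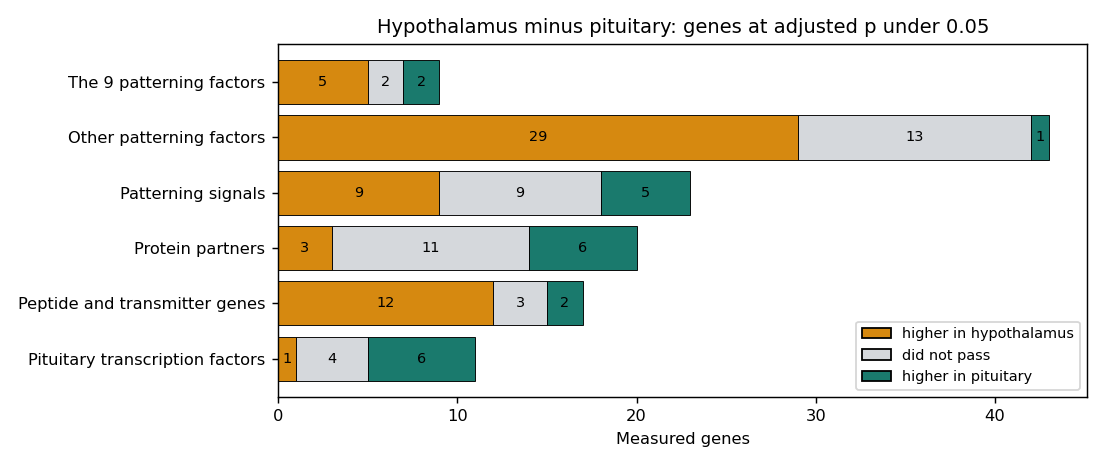
Number of measured genes in each list (horizontal axis) that were higher in hypothalamus, did not pass, or were higher in pituitary at a limma adjusted p under 0.05. The patterning factor list holds 29 higher and 1 lower of 43, and the pituitary factor list 1 higher and 6 lower of 11. Over all genes, 19.6% were higher and 19.9% lower.

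Transport stress was compared with control in each tissue, the question the series title poses for reproduction. In hypothalamus 0 of 9 factors passed, and 0% of all genes did. Over 22180 genes the lowest limma adjusted p was 0.99998 in hypothalamus (245 genes at an unadjusted p under 0.05), 0.99989 in pituitary (294 genes) and 0.99854 in ovary (592 genes). Counts of members called in pituitary and ovary were likewise 0 of 9, with 0% of all genes.

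Hypothalamic differences (stress minus control) ran from -0.28 for Six6 to 0.15 for Sim1, with a median of 0.02 over the 9 and -0.02 over all genes. Their 95% intervals show what these arrays could not see. That of Isl1 (difference 0.04) ran from -0.41 to 0.49, that of Six3 (0.02) from -0.47 to 0.51 and that of Otp (0.02) from -0.85 to 0.88. For Rax the difference was 0.12, for Nkx2-2 -0.05 and for Lhx1 0.03.

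Read by ovulation class, few members kept a sign in hypothalamus. Nkx2-1 was lower in stressed than control mice in each class, by differences of -0.09 (high), -0.63 (low) and -0.11 (pool), with a mean of -0.27 (interval -0.91 to 0.36, unadjusted p = 0.353). It was 1 of 9 members below control in every class, as 14.3% of all genes were. Rax was above control in every class (0.28, 0.05 and 0.04), again 1 of 9, as 9.23% of all genes were. Stressed and control arrays overlapped for all 9 in hypothalamus, where 1.94% of all genes lay wholly above control and 2.60% wholly below.

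In hypothalamus Lhx1, Otp, Nkx2-2 and Six6 had opposite signs in the high and the low mice. The share of all genes with opposite signs was not computed, so this is no result about the members. For Lhx1 stress minus control was 0.67 in the high samples, -0.44 in the low samples and -0.14 in the pools. Otp (0.38, -0.31 and -0.01) and Nkx2-2 (0.39, -0.36 and -0.18) had the same signs. Sim1 differed mainly in the low samples (0.01, 0.46 and -0.01), and Six6 had -0.70, 0.22 and -0.35. Each of these is 1 array against 1 array, so that no class difference has a replicate check. The summed thalamic, cortical and striatal markers, from tissue beside the hypothalamus, ran from 10.18 to 10.80 in stressed and from 10.64 to 11.09 in control hypothalamus (11 of 14 listed genes measured). This sum is not specific to brain tissue here, since it was 11.12 to 11.77 in pituitary. Drd2, one of the markers, averaged 8.64 in hypothalamus and 10.93 in pituitary. The part of these markers in the stress differences was not tested.

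In pituitary the widest member difference was that of Six6. It was lower in stressed mice in each class, by -0.84 (high), -0.72 (low) and -0.45 (pool), the 1 of 9 members below control in every class, as 17.7% of all genes were. No member (0 of 9) was above control in every class, as 10.1% of all genes were. The stressed values (8.74, 9.23 and 8.04) and the control values (9.58, 9.94 and 8.49) overlapped, as they did for all 9 members, where 2.40% of all genes lay wholly above control and 3.68% wholly below. The mean difference was -0.67 (SE 0.43, interval -1.65 to 0.31) and did not pass (unadjusted p = 0.154, limma adjusted p = 0.9999). With the ovulation class as a block the difference was the same (-0.67, SE 0.18, unadjusted p = 0.00656, adjusted p = 0.856), and without the pools it was -0.78 (unadjusted p = 0.0174, adjusted p = 0.689). The part of the ovarian marker signal of the stressed pool, given above, in the pool's difference was not tested. Nkx2-1 (-0.34) and Isl1 (-0.29) came next and did not pass, and the median of the 9 was -0.17, against -0.04 over all genes. The pituitary signal of Nkx2-1 was low, with a mean of 4.93 within the range of the array medians (4.75 to 5.03).

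The stress difference in hypothalamus minus that in pituitary was 0.39 for Six6 (interval -0.52 to 1.30), 0.33 for Isl1 and 0.25 for Rax, and 0 of 9 members passed the interaction test, as 0% of all genes did. In ovary, where the signals of these genes were low, Nkx2-1 was lower in stressed (4.52, 4.32 and 4.55) than in control mice (4.71, 4.74 and 4.62) with no overlap. It was 1 of 9 wholly below control, as 4.07% of all genes were, and the difference of -0.23 did not pass (unadjusted p = 0.206, limma adjusted p = 0.999). Sim1, Nkx2-1, Lhx1 and Isl1, 4 of 9, were below control in every class there, against 19.3% of all genes. The median of the 9 in ovary was -0.16, against -0.02 over all genes.

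**Figure D4:**
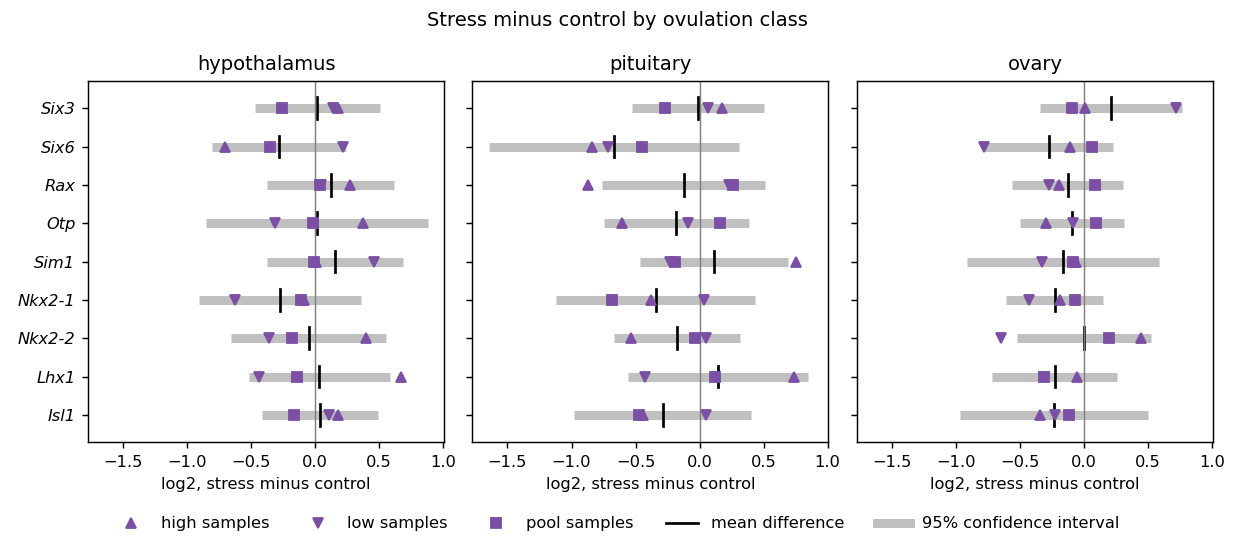
Stress minus control in log2 signal (horizontal axis) for each factor in hypothalamus, pituitary and ovary, with a marker for each of the high, low and pool samples, a tick for the mean and a grey bar for the 95% confidence interval. All intervals cross 0, and pituitary Six6 has its 3 class values between -0.84 and -0.45.

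The gene lists around the factors gave no stress call in hypothalamus either. Of the 43 other patterning factors 0 passed, with a median of 0.03. Those with the smallest p-values were Nr5a1 (0.42), Vax2 (0.41), Prdm12 (-0.31) and Prox1 (-0.38). Among the 23 signal genes (0 passed, median -0.09) they were Bmp4 (-0.46) and the Notch target Hes1 (-0.35). The 20 partners (0 passed, median -0.04) and the 17 peptide and transmitter genes (0 passed, median 0.04) gave none either. The smallest p-values among the peptide and transmitter genes were those of the dopamine-synthesis gene Th (0.49) and of Pomc (-0.48).

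High ovulators were compared with low ovulators across both treatments in a model with class and treatment, 2 arrays of each class. In hypothalamus 0 of 9 members and 0% of all genes passed, with 4275 genes at an unadjusted p under 0.05. Rax was nearest: its high samples (5.43 stressed, 5.15 control) lay above its low samples (4.84 stressed, 4.79 control), a difference of 0.47 (SE 0.16, unadjusted p = 0.0249, limma adjusted p = 0.203). Six3 had 0.40 (adjusted p = 0.287), and Isl1 ran the other way with -0.33 (adjusted p = 0.341). High above low in both treatments held for 3 of 9 members (Six3, Rax and Otp), against 32.5% of all genes, and high below low for 1 of 9 (Isl1), against 29.5%. In pituitary 0 of 9 passed as well, with 0% of all genes and 1160 at an unadjusted p under 0.05. High lay below low in both treatments for 3 of 9 (Six3, Six6 and Nkx2-1), against 28.4% of all genes, and above it for 0 of 9, against 23.8%. There Lhx1 had -0.53, Six6 -0.43 and Nkx2-1 -0.41 (limma adjusted p = 0.900 for each). The pituitary means of Lhx1 (4.31) and Nkx2-1 (4.93) lay below and within the range of the array medians (4.75 to 5.03).

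Pools and single mice were set side by side after their values had been seen, with no test. In hypothalamus both pools lay above all 4 single mice for Otp (7.48 and 7.49, against 6.14 to 6.89), Sim1 (6.74 and 6.75, against 6.10 to 6.56), Nkx2-1 (7.05 and 7.17, against 6.06 to 6.69) and Nkx2-2 (6.71 and 6.89, against 5.97 to 6.64). These were 4 of 9 members, against 21.0% of all genes, and 0 of 9 had both pools below, against 15.7%. The summed hypothalamic neuron markers (7 of 8 listed genes measured) were 12.77 to 12.85 in the pools and 12.85 to 13.17 in single mice. The summed tanycyte and ependymal markers (9 of 10) were 9.99 to 10.06 in the pools and 9.49 to 9.65 in single mice, but they are not specific to these cells here, since ovary had 9.75 to 10.04. The summed glial markers (9 of 10) were 12.22 to 12.41 in the hypothalamic pools and 11.95 to 12.18 in single mice, and the summed choroid plexus markers (5 of 6) were 8.35 to 8.55 and 7.86 to 8.06. The choroid plexus sum is not specific to that tissue here, since pituitary had 9.13 to 9.80 and ovary 7.72 to 8.59. In pituitary the pools lay below single mice for Six6 (8.04 and 8.49, against 8.74 to 9.94) and Isl1 (6.90 and 7.37, against 7.63 to 8.07), 2 of 9, against 18.7% of all genes, and above them for 1 of 9 (Nkx2-1: 5.07 and 5.76, against 4.30 to 4.92), against 24.4%. The summed pituitary markers were 14.90 to 14.93 in those pools and 15.20 to 15.26 in single mice. The summed hypothalamic neuron markers were 9.31 to 9.47 in the pituitary pools and 10.00 to 11.16 in single mice. Avp weighs most in that sum, with a pituitary mean of 9.59, against 6.66 for Oxt and 4.43 for Pmch. There the sum is no general measure of hypothalamic neurons. The summed glial markers were 10.02 to 10.34 in the pituitary pools and 9.69 to 9.98 in single mice. At this level the glial sum is not specific to glia, since ovary had 9.62 to 10.10. The part of these marker differences in the members' values was not tested.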

How the data were processed

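RNA of 3 tissues from stressed and control mice was measured on 18 arrays. Per the labels, total RNA was extracted with Trizol and 6 ug of it was labelled with biotin. The deposited table holds log2 signals that the authors made with Transcriptome Analysis Console, per the submitters' processing notes. Its version, background correction, normalisation and filters are not given in the sources used here. Values up to 13.66 fit a log2 scale of scanner readings.

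Of 41345 transcript clusters, 23521 name 1 gene and were kept. The 1814 naming several genes and the 16010 unnamed ones were left out of tests. A gene with more than 1 cluster (1082 genes) was read from the one with the highest mean, which gave 22180 genes. No filter on low values was applied, and all 9 members were tested. Array medians ran from 4.75 to 5.03, and 0 pairs of arrays were identical. The number of arrays limits the precision.

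Stress was compared with control within each tissue by limma 3.58.1 in R 4.3.3 (lmFit and eBayes), two-sided, calling an adjusted p under 0.05 (Benjamini-Hochberg, over all genes). Tissues and the interaction were fitted on all 18 arrays with the animal or pool as a random block (correlation 0.270), because 1 mouse or pool supplied all 3 tissues of its treatment and class. The fits were tested on simulated data with normal noise and no difference between pools and single mice. Those data cannot show how the fits handle the pools. Alternatives were quantile normalisation, median centring, a filter at the median level, the mean of a gene's clusters, array weights, blocks, no pools and each array left out. The labels pair no stressed with control animal by class. Deviations from the group means correlated by 0.36 to 0.73 in the 9 same-class pairs of arrays and by -0.52 to 0.32 in the 18 others. A gene's 3 deviations in a group sum to 0, so positive same-class values pull the others down. Pool with pool gave the highest values (0.66 to 0.73). Among single mice, same and different class gave 0.37, 0.36 and 0.31, 0.32 in pituitary, and 0.41, 0.52 and -0.05, 0.14 in hypothalamus. These values cannot settle whether animals pair by class, and the class block was fitted only as an alternative.

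Lists of partner, signal, peptide and marker genes were written by hand. In a comparison described for a list, up to 4 genes with the smallest unadjusted p are named. For likeness, the named gene symbols with the highest Pearson r are given, at most 3 a member. The members and lists were chosen with earlier results of these data known. Promoters came from RefSeq's GRCm38.p6 table. The assembly of the array annotation is not given in the sources used here, so no cluster coordinates are printed.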

Additional observations from a re-analysis of the deposited data

How the results depend on the processing

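Of 1434 member values under alternatives, 1411 kept their side of the threshold, 23 changed it (Rax and Nkx2-1, given above) and 0 called values reversed. All 23 were differences between tissues. The total also holds stress, ovulation class and interaction values, where no member passed in any setting, so it says little about how stable the calls are. Calls of hypothalamus against pituitary or ovary for the other members passed in all settings run for them. With genes at or above the median level only, which kept 4 members in the tissue comparisons (Six3, Six6, Otp and Isl1), 1 member was higher (31.7% of the genes kept) and 2 were lower (29.5%) in hypothalamus than pituitary, and 4 were higher than ovary (30.6%). The same filter (11090 genes) gave 1138 genes between high and low ovulators in hypothalamus, 274 higher and 864 lower, and none of the 8 members it kept. Leaving out single arrays gave 0 to 1 genes there (1 without the control high hypothalamus). The interaction gave 1 gene without the pools, and 0 to 1 when single arrays were left out (1 without the control hypothalamic pool). Under leave-one-out, members higher in hypothalamus than ovary numbered 8 to 9 and in pituitary than ovary 3 to 5. The ovulation class as a block left stress calls at 0 in each tissue and changed no member call but that of Nkx2-1 between pituitary and ovary (adjusted p = 0.0278). Signals near the array medians, as those of Rax, limit what can be seen, and 3 arrays a group give wide intervals.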

Other observations

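Nkx2-2 and Lhx1 each have a further cluster that the annotation assigns to the gene together with an antisense transcript, and both were left out of the tests because the annotation gives them 2 genes each. The cluster shared by Lhx1 and Lhx1os read 4.85, 4.38 and 4.42 in stressed hypothalamus and 5.11, 4.85 and 3.96 in control hypothalamus (high, low and pool). It ran from 2.98 to 3.85 in pituitary and from 3.20 to 3.74 in ovary, below all hypothalamic arrays. The cluster shared by Nkx2-2 and Nkx2-2os ran from 4.72 to 4.95 in hypothalamus, from 4.67 to 5.09 in pituitary and from 4.30 to 5.07 in ovary, so that the tissues overlapped there, unlike in the cluster that names Nkx2-2 alone.

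The marker lists for other cell types gave no stress call in hypothalamus (0 passed in each list). Among the patterning factors outside the 9 members, Dlx5 had a pituitary stress difference of 1.27 (unadjusted p = 0.0128, limma adjusted p = 0.9999), and hypothalamus minus pituitary in that difference was -1.50 (unadjusted p = 0.00127, adjusted p = 1.0). In each comparison it was the 1 of 43 at an unadjusted p under 0.05, as were 294 and 773 of 22180 genes. Its pituitary arrays ran from 3.72 to 6.21, with a median of 4.38.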
